A study of Mus musculus with 2 samples.

Results

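Late Fcnb-positive neutrophil progenitors are marrow cells that hold the transcripts of the primary granule proteases and of ficolin B while those of the secondary granules are still scarce. Cells were kept from 200 detected genes up, unless mitochondrial transcripts exceeded 25% of their UMIs (unique molecular identifiers, 1 for each captured RNA molecule). A kept cell was a member when Mpo, Elane, Prtn3 and Ctsg together made up 1% or more of its RNA UMIs, Elane and Fcnb had 5 or more UMIs each, and Ltf, Camp and Ngp together stayed under 2%. The rule took 257 of 15650 kept cells in the HFD library and 202 of 14302 in the ND library, 459 of 29952 in all. Members were set against 2 neighbouring stages of the same libraries. Early Fcnb-low progenitors met the same rule but had fewer than 5 Fcnb UMIs (680 HFD and 646 ND cells). Immature neutrophils had 2% or more of their UMIs in Ltf, Camp and Ngp (1529 HFD and 1174 ND cells).

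The libraries came from bone marrow of young male mice, given as genotype Wild type and strain C57B/6, which ate a diet with 60% fat (HFD) or normal chow (ND) for 16 weeks. There was 1 BD Rhapsody whole-transcriptome library per diet, and the labels give neither the number of animals in a library nor any sort of the cells. The comparison asks how transcripts of the marrow differ with diet. With 1 library each, differences between the libraries have no replicate check and no p-value. Every interval below is a 95% interval for counting error only and leaves out the spread between animals and between cells.

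Neutrophils are made in the marrow from progenitors that first fill primary (azurophil) granules with serine proteases and myeloperoxidase, then secondary granules with lactoferrin, cathelicidin and neutrophilic granule protein. Gfi1 and the C/EBP family drive this programme, and C/EBP-epsilon is needed for secondary granules in mice. Ficolin B is a secreted pattern-recognition lectin of myeloid cells that binds acetylated sugars.

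The upstream sequences of Fcnb and of the protease genes Elane and Prtn3 are shown because the proteases were high in early and late cells and low in immature ones, while Fcnb, which the rule holds low in early cells, had a high summed level in both later stages. Each run is bases 250 to 71 before the RefSeq start site on the transcribed strand, 5′ to 3′, in build GRCm38.p6, with Fcnb at chr2:28084949-28085128 (minus strand), Elane at chr10:79886062-79886241 (plus) and Prtn3 at chr10:79879417-79879596 (plus). Capitals mark the letters TTGCNNAA, a C/EBP-type motif, and GAGGAA, a core of the PU.1 motif, on either strand.
Fcnb: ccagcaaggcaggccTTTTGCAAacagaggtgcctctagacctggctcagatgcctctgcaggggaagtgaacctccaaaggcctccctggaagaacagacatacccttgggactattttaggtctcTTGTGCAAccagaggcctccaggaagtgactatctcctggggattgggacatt
Elane: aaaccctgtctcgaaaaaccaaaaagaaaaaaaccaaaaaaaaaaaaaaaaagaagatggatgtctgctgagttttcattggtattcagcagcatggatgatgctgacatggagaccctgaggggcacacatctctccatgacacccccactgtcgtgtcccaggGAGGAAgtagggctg
Prtn3: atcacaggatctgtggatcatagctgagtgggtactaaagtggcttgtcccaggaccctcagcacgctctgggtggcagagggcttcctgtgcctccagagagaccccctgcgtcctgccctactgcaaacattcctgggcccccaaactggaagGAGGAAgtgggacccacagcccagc
Fcnb held 2 matches to TTGCNNAA and none to GAGGAA. Elane and Prtn3 held 1 match each to GAGGAA and none to TTGCNNAA. Among 32851 windows of the same length upstream of annotated starts, 7.42% held TTGCNNAA and 17.2% held GAGGAA. The MYB core AACTG was in Prtn3 only of these 3 and in 31.0% of all windows, and the RUNX core TGTGGT was in none of the 3 and in 10.4% of all windows. No 2 matches overlapped. A match describes letters and is not a binding site.

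Members were deeply sampled, with a median of 21521 UMIs and 4776 genes per HFD member and 22085 UMIs and 4786 genes per ND member. Their median mitochondrial share was 6.88% in HFD and 7.49% in ND members. Early cells were as deep, with medians of 22490 UMIs in HFD and 21914 in ND, whereas immature neutrophils had 5376 in HFD and 5440.5 in ND. The libraries held 17282 HFD and 16817 ND barcodes and 329 cell indexes occurred in both, among them those of 4 HFD and 2 ND members. Scrublet, a doublet caller, marked 7 HFD and 3 ND members, which stayed in the values below.

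Members made up 1.64% of kept HFD cells (interval 1.45 to 1.85%) and 1.41% of kept ND cells (1.23 to 1.62%), a ratio of 1.16 (0.963 to 1.41). Of all progenitors, early and late together, 27.4% were late in HFD (24.6 to 30.4%, of 937) and 23.8% in ND (21.0 to 26.8%, of 848). The counting interval of this ratio, 1.15 (0.954 to 1.39), also held 1. No difference in the share of members was therefore detectable at this number of cells under the rule. With 10 or more Fcnb UMIs in place of 5, the share was 1.31% in HFD and 1.05% in ND, a ratio of 1.25 whose interval (1.01 to 1.55) left out 1.

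All 5 markers of the population were high in the members of both libraries. Levels are in CPM, the UMIs of a gene summed over the cells of a stage and scaled so that every stage has the same total. They follow the choice of the cells and are a description, not a test. Elane, neutrophil elastase, stood at 10585 CPM in HFD and 10071 in ND members, with per-cell counts between 25 and 560 UMIs (median 230) in HFD and between 20 and 462 (median 216) in ND. Fcnb stood at 1374 CPM in HFD and 1213 in ND members, with 5 to 151 UMIs per cell (median 21) in HFD and 5 to 168 (median 19) in ND. The libraries overlapped over nearly the whole range of both genes. Gfi1, a transcriptional repressor required for neutrophil development, had 219 CPM in HFD and 224 in ND members. Mgl2, a galactose-binding C-type lectin, had 298 CPM in HFD and 263 in ND. B4galt6, which makes lactosylceramide, had 458 CPM in HFD and 420 in ND. Gfi1, Mgl2 and B4galt6 were not part of the rule.

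Cells on either side of the Fcnb threshold differed in some genes. The 30 HFD and 40 ND members with 5 to 7 Fcnb UMIs had 9335 CPM of Elane in HFD and 9408 in ND, and 201 CPM of Mgl2 in HFD and 185 in ND. The 75 HFD and 67 ND cells just outside, with 2 to 4 Fcnb UMIs, had 8203 CPM of Elane in HFD and 7992 in ND, and 134 CPM of Mgl2 in HFD and 133 in ND. Ngp ran the other way, with 15.6 CPM in HFD and 20.8 in ND just inside and 359 CPM in HFD and 131 in ND just outside. Ngp was spread unevenly over early cells, with an upper quartile of 0 UMIs in each library and a maximum of 434 in HFD and 393 in ND. A minority of early cells therefore held these transcripts. At the other edge, 19 HFD and 13 ND members had 1 to 2% of their UMIs in Ltf, Camp and Ngp, and 13 HFD and 8 ND cells that met every other threshold had 2 to 3%.

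Late progenitors had far more transcripts of calprotectin, cathelicidin and ficolin B than early ones, and far fewer of stem cell and monocyte genes, in both libraries. A gene was called when its ratio was at least 1.5-fold with an interval clear of 0 on the log2 scale in both libraries. Of 10888 genes with 50 or more UMIs, 652 were called higher (5.99%) and 1190 lower (10.9%) in late than in early cells, with a median log2 ratio of -0.12 in each library. The cells were chosen by these same counts, so nothing is tested by the contrast. Apart from Fcnb itself (log2 ratio 6.22 in HFD and 6.14 in ND), the highest ratios were those of Camp, cathelicidin (5.24 in HFD and 5.19 in ND), Clec4b2, a C-type lectin receptor (5.40 in HFD and 4.02 in ND), and S100a9 and S100a8, which form calprotectin (4.61 and 4.50 in HFD, 4.41 and 4.42 in ND). S100a8 stood at 7665 CPM in HFD and 6929 in ND late cells, against 339 CPM in HFD and 325 in ND early cells. Chil3, a chitinase-like protein, followed with log2 ratios of 3.88 in HFD and 4.21 in ND, and Wfdc21 with 3.64 in HFD and 3.56 in ND. Vcam1, an adhesion molecule, was at 211 CPM in HFD and 245 in ND late cells, against 25.7 CPM in HFD and 42.9 in ND early cells.

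**Figure D1:**
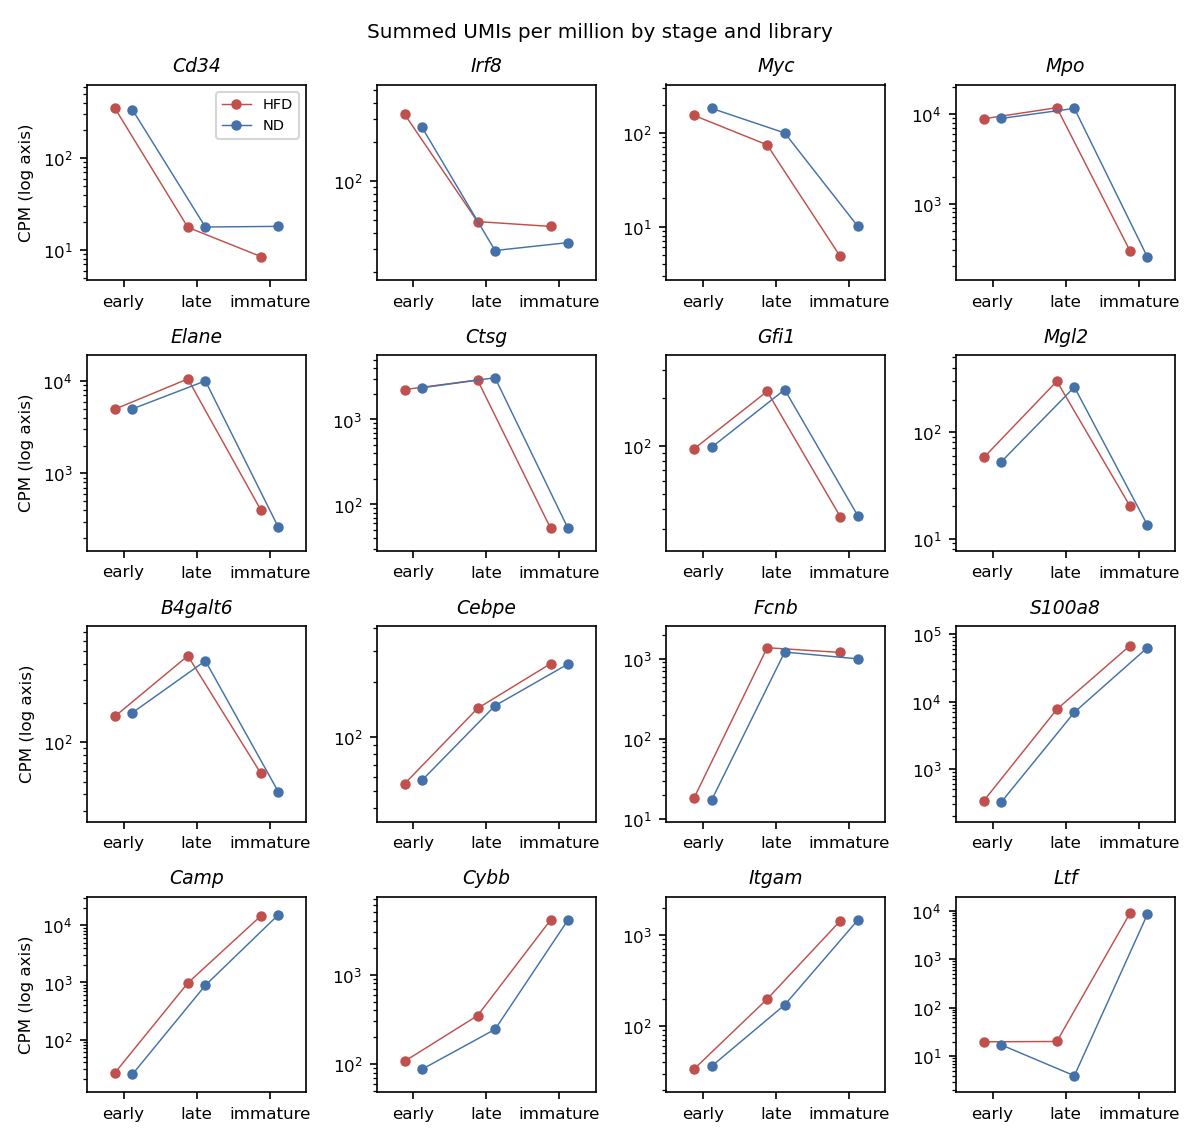
CPM (log axis) of 16 genes in early, late and immature cells, with the HFD library left and the ND library right at each stage; lines join a library's stages. Elane, Mpo, Ctsg, Gfi1, Mgl2 and B4galt6 peaked in late cells of both libraries, and Cebpe, S100a8, Camp, Cybb and Itgam climbed from stage to stage in both.

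Of 13 stem and multipotent progenitor markers 9 were called lower and none higher, and of 18 monocyte and macrophage markers 11 were called lower and 2 higher. The 2 were Ly6c2 and Vcam1. Cd34, a stem and progenitor surface protein, had 17.7 CPM in HFD and 17.9 in ND late cells, against 350 CPM in HFD and 336 in ND early cells. Irf8, which directs monocyte and dendritic cell fate, had 48.6 CPM in HFD and 29.1 in ND late cells, against 327 in HFD and 259 in ND early cells. Ccnd1, Cd27, Mfge8, Myct1, Smo, Serpinf1 and Il6st were also among the 15 genes with the lowest ratios. Of 31 granulopoiesis transcription factors, 7 were called higher and 12 lower. Cebpe, the regulator of secondary granules, had log2 ratios of 1.39 in HFD and 1.37 in ND, Gfi1 had 1.20 in both, Ets1 had 2.30 in HFD and 2.02 in ND, and Id2, an inhibitor of helix-loop-helix factors, had 3.08 in HFD and 2.74 in ND. The lower ones included Meis1 (-3.56 in HFD and -3.26 in ND) and Hoxa9 (-2.67 in HFD and -2.97 in ND), homeobox genes of immature progenitors, and Myc (-1.04 in HFD and -0.87 in ND). Cebpa and Spi1, which act from the earliest myeloid stages, were not called (log2 ratios of -0.13 and 0.44 in HFD, and -0.08 and 0.42 in ND).

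Granule genes are partly those of the rule. Of 25 primary granule genes, 10 were called higher and 1 lower in late than in early cells. Elane and Prtn3, proteinase 3, had log2 ratios of 1.09 and 0.92 in HFD and 1.01 and 0.93 in ND. Mpo, myeloperoxidase, and Ctsg, cathepsin G, were already high in early cells and were not called (0.41 and 0.37 in HFD, 0.37 and 0.39 in ND). Ctsc, the peptidase that activates these proteases, was the 1 gene called lower. Of 27 secondary and tertiary granule genes, 17 were called higher and 2, Slpi and Cfp, lower. Ltf, lactoferrin, was not among them, with 20.1 CPM in HFD and 3.97 in ND late cells, against 19.8 CPM in HFD and 17.1 in ND early cells. Of 9 genes of the NADPH oxidase, which makes the oxidative burst, 6 were called higher and none lower. Cybb, its catalytic subunit, had 348 CPM in HFD and 244 in ND late cells, against 107 in HFD and 87.2 in ND early cells. Among receptors, the integrin chains Itgam and Itgb2, which form CD11b/CD18, had log2 ratios of 2.55 and 2.04 in HFD and 2.24 and 1.88 in ND. Csf3r, the receptor of granulocyte colony-stimulating factor, had 1.03 in HFD and 0.72 in ND. The receptors Csf1r (-2.32 in HFD and -2.61 in ND) and Ccr2 (-2.67 in HFD and -3.45 in ND), which belong to monocytes, were called lower.

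Late cells still carried the transcripts of dividing cells. Of 30 S phase genes none was called in either direction against early cells, and of 30 G2 and M phase genes 1, Plk1, a mitotic kinase, was called higher. Mki67, a proliferation antigen, had 402 CPM in HFD and 409 in ND late cells, against 281 in HFD and 279 in ND early cells. Of 23 genes of ribosome production, 11 were called lower and none higher. Npm1 and Ncl, abundant nucleolar proteins, had log2 ratios of -0.89 and -0.65 in HFD and -0.82 and -0.69 in ND. None of 24 genes of protein folding in the endoplasmic reticulum was called.

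Against immature neutrophils, late progenitors had far more primary granule transcripts and far fewer of the secondary granules. Of 10260 genes, 4530 were called higher (44.2%) and 1563 lower (15.2%), with median log2 ratios of 0.58 in HFD and 0.57 in ND, so the median gene was itself higher in late cells. In immature cells S100a8 and S100a9 alone made up 67208 and 83540 CPM in HFD and 62834 and 82887 in ND, which lowers the CPM of every other gene there. Ctsg had a log2 ratio of 5.79 in HFD and 5.89 in ND, Mpo 5.31 in HFD and 5.52 in ND, Elane 4.73 in HFD and 5.28 in ND, and Cst7, the cathepsin inhibitor cystatin F, 4.75 in HFD and 4.70 in ND. Of 26 primary granule genes 17 were called higher and 3 lower. The 3 were Lyz2, Lyz1 and Mgst1. Lyz2, lysozyme, had 488 CPM in HFD and 267 in ND late cells, against 16000 in HFD and 14963 in ND immature cells. Of 28 secondary and tertiary granule genes 27 were called lower and none higher. Ltf had log2 ratios of -8.76 in HFD and -11.04 in ND, and Ly6g, the usual surface marker of mouse neutrophils, -8.15 in HFD and -10.30 in ND. The summed level of Fcnb differed little, with log2 ratios of 0.20 in HFD and 0.28 in ND, but was spread unevenly. Immature cells had a median of 0 Fcnb UMIs in each library, with an upper quartile of 6 in HFD and 5 in ND, so a minority of them held the transcripts.

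The machinery for making protein was far higher than in immature cells. Of 23 ribosome production genes 22 were called higher, of 24 endoplasmic reticulum folding genes 20, and of 30 S phase genes 27, with none lower in these 3 lists. Calr, the chaperone calreticulin, had 2607 CPM in HFD and 2421 in ND late cells, against 225 in HFD and 252 in ND immature cells. Alas1, which starts haem synthesis, had log2 ratios of 2.24 in HFD and 2.23 in ND. Of 22 haem and iron genes 12 were called higher and 3 (Slc11a1, Fth1 and Hmox1) lower. Over all genes 44.2% were called higher and 15.2% lower, so the haem and iron list was near the shares of all genes. Myb and Myc, factors of cycling progenitors, had 2.85 and 3.95 in HFD and 2.88 and 3.30 in ND. Of 9 oxidase genes 6 were called lower and none higher, with Cybb at -3.56 in HFD and -4.08 in ND. Among chemotactic receptors, Fpr2 had -7.51 in HFD and -9.07 in ND and Cxcr2 -4.22 in HFD and -4.07 in ND. Kit, the stem cell factor receptor, was called higher, with 2.05 in HFD and 1.84 in ND.

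The members spanned a gradient between these stages. They were split by the summed share of Ltf, Camp and Ngp into cells under 0.1% (191 HFD and 162 ND cells), from 0.1 to 0.5% (28 HFD and 16 ND cells) and from 0.5 to 2% (38 HFD and 24 ND cells). From the lowest to the highest class, Fcnb stood at 905, 3225 and 3489 CPM in HFD and 849, 2496 and 3545 in ND. Ctsg went the other way, with 3316, 1623 and 944 CPM in HFD and 3398, 2089 and 1144 in ND. Elane had 10806, 11476 and 8603 CPM in HFD and 10111, 10902 and 9163 in ND, so it was lowest in the highest class of both libraries. Cebpe had 124, 203 and 244 CPM in HFD and 124, 217 and 322 in ND. S100a8 had 4481, 15175 and 24859 CPM in HFD and 4459, 15040 and 23190 in ND, and Itgam 132, 370 and 545 in HFD and 125, 365 and 435 in ND. Myb had 862, 556 and 385 CPM in HFD and 859, 521 and 447 in ND. The 23 ribosome production genes summed to 5606, 2991 and 2878 CPM in HFD and 5372, 3262 and 2640 in ND. Gfi1 varied little and without direction, at 220, 262 and 188 CPM in HFD and 221, 262 and 226 in ND. The order of the classes was the same in both libraries for each of these genes but Gfi1, whose lowest class differed. Median depth was 24291, 14726 and 17568 UMIs in HFD and 22766, 17040 and 17816 in ND, and its part in the gradient was not tested.

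**Figure D2:**
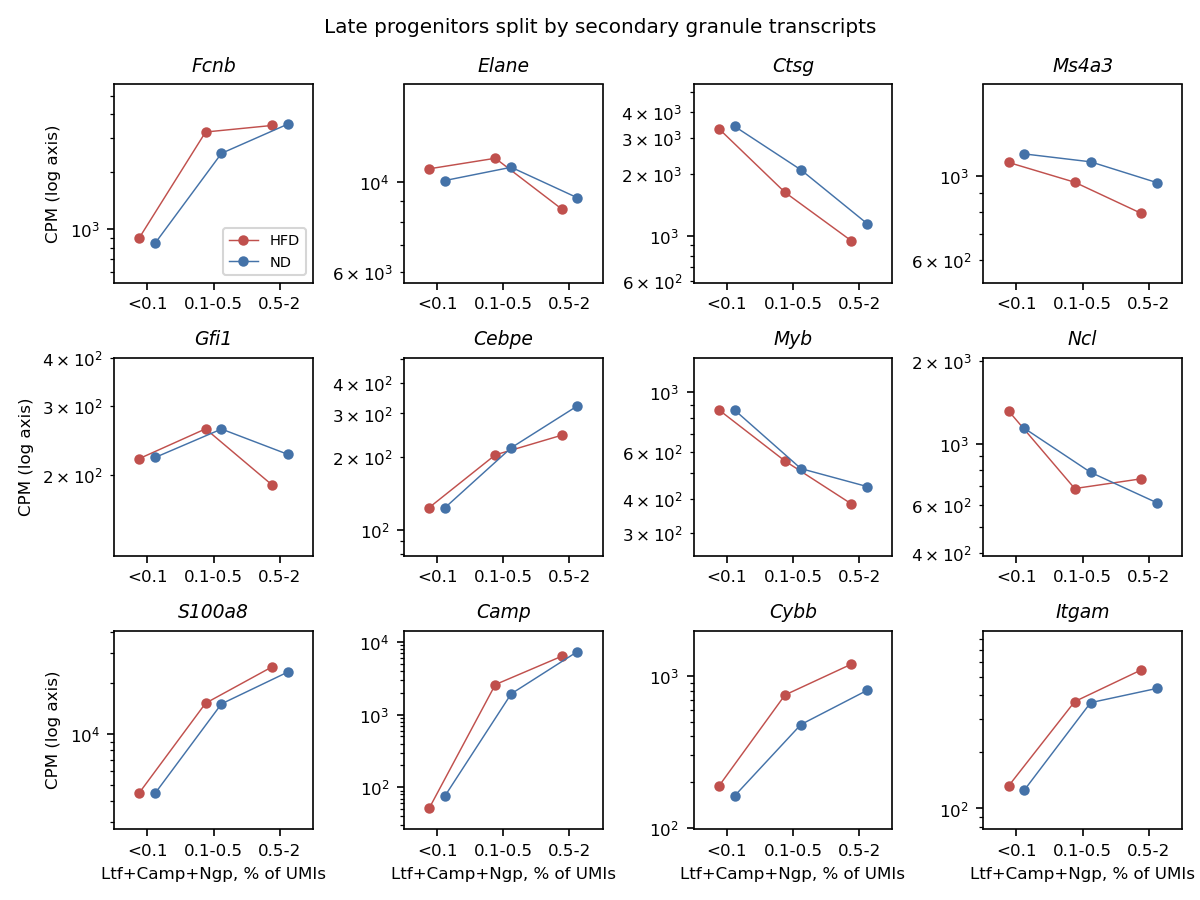
CPM (log axis) of 12 genes in late progenitors split by the percentage of UMIs in Ltf, Camp and Ngp, HFD left and ND right in each class. Fcnb, Cebpe, S100a8, Cybb and Itgam were higher and Ctsg, Ms4a3 and Myb lower with each step in both libraries; Camp is part of the sum that sets the classes.

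Of the antibody tags, which the rule did not use, CD117 and CD16/CD32 had medians in late cells that lay between those of early and immature cells. The CD117 (Kit) tag had a median of 25, 15 and 2 molecules per cell in early, late and immature cells of HFD and of 39, 19 and 3 in ND. It lay above the median of all kept cells, 1 molecule in each library, in 96.9% of late HFD and 99.0% of late ND cells. The CD16/CD32 tag, which reads Fc gamma receptors, had medians of 7, 12 and 28 in HFD and 15, 18 and 51 in ND in the same order of stages. The quartiles of late cells ran from 4 to 38 molecules in HFD and from 7 to 56 in ND, so the stages overlapped widely. Tag molecules were fewer in the HFD library at each of these stages, and over all kept cells CD16/CD32 had a median of 14 in HFD and 19 in ND, so no diet difference was read from the tags. The Ly-6A/Ly-6E tag had a median of 0 molecules at each stage. It lay above 0 in 37.4% of early, 27.2% of late and 30.4% of immature HFD cells. In ND it did so in 42.3% of early, 34.2% of late and 38.6% of immature cells. The intervals of late cells, 21.9 to 33.1% in HFD and 27.6 to 41.1% in ND, overlapped those of immature cells (28.1 to 32.8% and 35.8 to 41.4%). In ND they also overlapped that of early cells (38.4 to 46.2%), so the order of the stages was not resolved there. The CD105 tag had a median of 0 in late cells of both libraries.

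**Figure D3:**
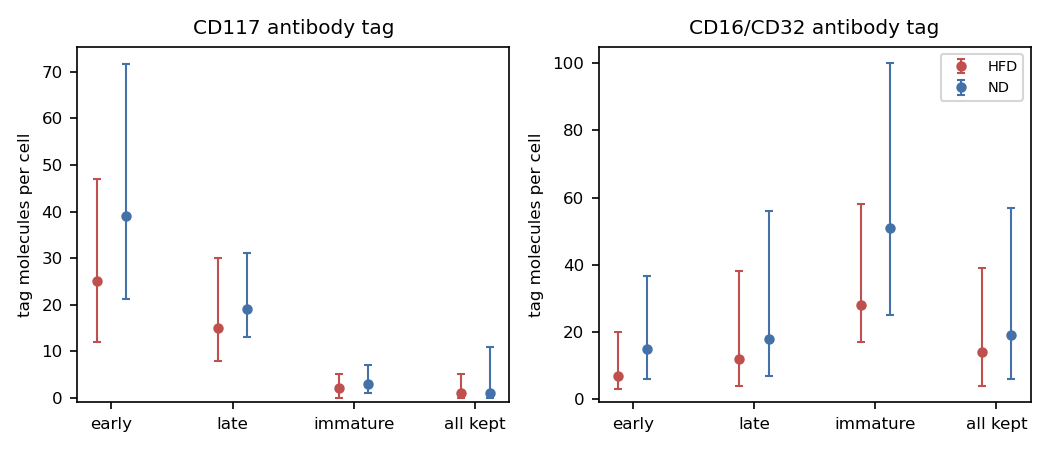
Median antibody tag molecules per cell with quartiles (bars) in early, late, immature and all kept cells, HFD left and ND right. CD117 declined from early to immature cells in both libraries, and CD16/CD32 was highest in immature cells.

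Between diets, few genes of the members were called. Of 9025 genes with 50 or more UMIs, 153 were called higher (1.7%) and 128 lower (1.42%) in HFD than in ND members, with a median log2 ratio of 0.01. In early cells 1.04% of genes were called higher and 1.58% lower in HFD, and in immature cells 1.83% were called higher and 2.21% lower. With every cell thinned to 5000 UMIs before the rule, 134 HFD and 111 ND members were left. Among the 3958 genes with enough UMIs, 110 were then called higher and 54 lower. These held 8 of the 153 and 0 of the 128 genes, so nearly all were other genes. The markers Elane, Fcnb, Mgl2, B4galt6 and Gfi1 were not called. The rule chose the cells of both libraries by Elane, by Fcnb and by the sums of the protease and secondary granule genes. The ratios of all these rule genes are therefore partly set by that choice. Of the other rule genes, Mpo, Prtn3, Ctsg and Camp were not called. Ngp (log2 ratio 0.81) and Ltf (2.34) were called higher in HFD members. Elane had a log2 ratio of 0.07 (0.05 to 0.09), Fcnb 0.18 (0.13 to 0.23), Mgl2 0.18 (0.07 to 0.29), B4galt6 0.13 (0.04 to 0.21) and Gfi1 -0.04 (-0.16 to 0.08). The median of 25 measured primary granule genes was 0.03, with Lyz2 the 1 gene called.

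Genes of fatty acid use were among those higher in HFD members. Cpt1a, which moves long-chain fatty acids into mitochondria, had 1043 UMIs (181 CPM) in HFD and 522 (115 CPM) in ND, a log2 ratio of 0.65 (0.50 to 0.81). Slc25a20, the carnitine carrier of the same route, had 0.67 (0.32 to 1.02). Acot1, an acyl-CoA thioesterase, had 82 UMIs in HFD and 14 in ND, a log2 ratio of 2.21 (1.38 to 3.14). No cell held more than 3.66% of the Acot1 UMIs in HFD, while 1 ND cell held 14.3% of the few there. These 3 were the genes called of 29 measured for fatty acid oxidation, whose median was 0.08. All 3 also lay above 0 in early cells (0.49, 0.29 and 1.03 for Cpt1a, Slc25a20 and Acot1) and in immature cells (0.83, 0.52 and 1.58), so the direction was shared by the stages. Tspo, a mitochondrial outer membrane protein, was similar, with 169 CPM in HFD and 106 in ND members, a log2 ratio of 0.67 in late, 0.67 in early and 0.75 in immature cells.

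Genes of cholesterol synthesis were lower in part. Of 21 measured, 4 were called lower and none higher, with a median of -0.13. Sqle, squalene epoxidase, had 45 UMIs in HFD and 76 in ND, a log2 ratio of -1.10 (-1.67 to -0.55). Hsd17b7 had -0.65 (-1.25 to -0.07) and Fdft1, squalene synthase, -0.59 (-1.09 to -0.09). The median of the list was -0.09 in early and -0.34 in immature cells.

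The inducible heat shock genes Hspa1a and Hspa1b showed the widest gap. Hspa1b had 192 UMIs in HFD members and 5 in ND, a log2 ratio of 4.92 (3.67 to 6.56), and Hspa1a 106 in HFD and 5 in ND, a ratio of 4.06 (2.79 to 5.71). These were the 2 genes called of 21 chaperones measured, whose median was 0.02. The 2 genes are near-identical copies, so their UMIs may be split between them. Both were also higher in HFD in the other stages, Hspa1b with 4.41 in early and 3.63 in immature cells and Hspa1a with 4.26 in early and 5.53 in immature cells. Over all kept cells outside the members Hspa1a had 3.75 and Hspa1b 3.63, so the gap was not particular to the members. Immediate early genes had a median of 0.28 with 3 of 13 (Fos, Klf4 and Dusp1) called higher and none lower. Without members that had 10 or more UMIs of another cell type's genes the median was 0.16 and 1 of 13 was called, and without Scrublet doublets it was 0.15 with 2 of 13 called. Fos had 0.90 (0.43 to 1.40) in late cells, but -0.19 in early and -0.28 in immature cells. Dnajb9 and Ddit3, genes of the unfolded protein response, had 0.72 (0.48 to 0.97) and 0.84 (0.15 to 1.56), the 2 genes called of 24 folding genes.

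Among the 12 genes with the highest ratios and at least 200 UMIs, some were spread over many members. Ifi27, an interferon-induced protein, had 313 UMIs in HFD and 100 in ND, a log2 ratio of 1.30 (0.97 to 1.64), and no member held more than 4% of them. It was 0.47 in early and 0.63 in immature cells. The interferon response list as a whole had a median of 0.15, with 1 of 18 genes, Oasl2, called higher (1.14) and none lower. Without the 2% of members richest in each gene Oasl2 came to 0.24 and 0 of 14 genes were called. As a mean over cells 0 of 18 were called, with an Fcnb threshold of 10 UMIs 0 of 13, and with 3 UMIs 2 of 19. Srf, a transcription factor of cytoskeletal genes, had 187 UMIs in HFD and 79 in ND (0.90, 0.51 to 1.30), and Lypla2, a depalmitoylating enzyme, 160 in HFD and 75 in ND (0.75, 0.34 to 1.16). At the low end, Kif3b, a kinesin, had 85 UMIs in HFD and 118 in ND (-0.82, -1.24 to -0.40), with ratios of 0.00 in early and 0.12 in immature cells. H1f0, a linker histone of non-dividing cells, had 151 in HFD and 202 in ND (-0.76, -1.08 to -0.45), and was -0.66 in early and -0.85 in immature cells. Slc4a8, Cnot11, Pacsin2, Cep85 and Endod1 lay between -0.73 and -0.63.

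For other genes at both ends, 1 cell held a large part of a library's UMIs. Retnlg, a resistin-like protein of mature neutrophils, had 615 UMIs in HFD and 52 in ND, a log2 ratio of 3.22 (2.81 to 3.66), and 1 HFD cell held 29.9% of them. With the 2% of members richest in a gene left out of its sum in each library, an alternative chosen after seeing the data, Retnlg came to 0.98, Mmp8 to 1.53 against 3.19, and S100a6 to 1.904 against 2.09. Car2, carbonic anhydrase of erythroid cells, was at -1.30, with 47.2% of its ND UMIs in 1 cell, and came to 0.053. Gata2, a stem and mast cell factor, was at -1.12, with 54.1% of its ND UMIs in 1 cell, and came to -1.67. The basophil and mast cell genes Ms4a2 and Cpa3 were at -1.30 and -0.68, with 59.9% and 65.5% of their ND UMIs in 1 cell, and came to -0.34 and -0.71. Under other alternatives Cpa3 came to -4.47 without Scrublet doublets, 0.37 with cells thinned to 5000 UMIs and 0.25 as a mean over cells. Gata2 came to -3.32, -2.27 and -0.86 and S100a6 to 1.53, 1.02 and 2.03 in the same order. What part a few rich cells had in these ratios was not tested. Haemoglobin transcripts summed to 7.47 CPM in HFD and 92.2 in ND members, and to 4.51 CPM in HFD and 5.07 in ND without the 5 highest cells of each library. In the same way Prss34 and Mcpt8, basophil proteases, summed to 330 CPM in HFD and 372 in ND members, and to 32.1 in HFD and 43.7 in ND without 5 cells. Cd3 genes of T cells had 5 UMIs in HFD and 0 in ND members.

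**Figure D4:**
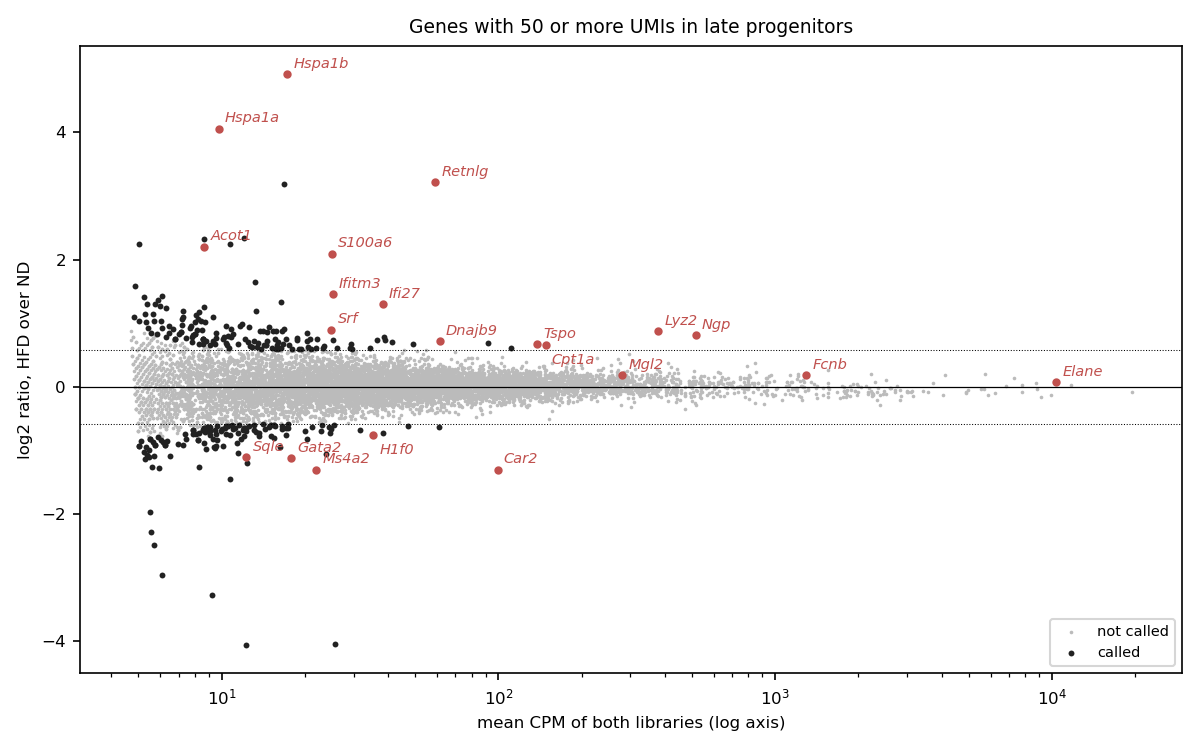
Log2 ratio of HFD over ND against the mean CPM of both libraries (log axis) for each of 9025 genes in late progenitors; dotted lines mark 1.5-fold and red points and names mark a choice of genes made after their values were seen. Hspa1b (4.92) and Hspa1a (4.06) lie highest, while Elane (0.07), Fcnb (0.18) and Mgl2 (0.18) lie near the line at 0.

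The secondary granule genes leaned towards HFD. Of 25 measured, 9 were called higher and none lower, with a median of 0.30, beside 0.07 in early and 0.00 in immature cells. The list holds the rule genes Ltf, Camp and Ngp, and Ltf and Ngp are among those called. The rule caps their summed share in both libraries, so their ratios are partly set by the choice of cells. Ngp had 3792 UMIs (658 CPM) in HFD and 1700 (375 CPM) in ND, a log2 ratio of 0.81 (0.73 to 0.90). Lcn2, the siderophore-binding lipocalin, had 134 CPM in HFD and 87.7 in ND, a ratio of 0.61 (0.44 to 0.79). Camp, with 980 CPM in HFD and 892 in ND, was not called (0.14, 0.08 to 0.20). Ltf had 116 UMIs in HFD and 18 in ND, a ratio of 2.34 (1.62 to 3.15), with 41.4% of the HFD UMIs in 1 cell. With Scrublet doublets left out the list's median was 0.13, Ngp's ratio 0.50 and Ltf's 0.016, and 2 of 21 genes were called. Without members that had 10 or more UMIs of another cell type's genes 4 of 22 were called, and without the 2% of members richest in each gene 3 of 19, both chosen after seeing the data. The class of members with 0.5 to 2% of secondary granule UMIs was 14.8% of HFD and 11.9% of ND members. What part the make-up of the members had in the list's median was not tested.

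No gene of S phase or of G2 and M phase was called between diets. Of 13 measured genes of cell cycle exit, 1 was called higher and none lower, with a median of 0.13. It was Cdkn1a, with 39 UMIs in HFD and 15 in ND, a log2 ratio of 1.03. Of all 9025 genes 52.7% lay above 0. Of 30 S phase genes 26 lay above 0, with a median of 0.16 and none called. The highest were Rrm2 (0.38), Cdc45 (0.33), Cdc6 (0.31) and Mcm2 (0.30), genes of nucleotide supply and of replication origins. With cells thinned to 5000 UMIs, Cdc45 came to -0.39 and Mcm2 to -0.097, while Rrm2 came to 0.32 and Cdc6 to 0.47. The S phase list then had 22 of 26 measured genes above 0, with a median of 0.21. Of 30 G2 and M phase genes 6 lay above 0, with a median of -0.08 and none called, and as a mean over cells 14 lay above 0, with a median of -0.017. Cdc20 and Ccnb1, regulators of mitosis, had -0.31 and -0.25. In early cells the medians were 0.02 for S phase and 0.15 for G2 and M phase. The remaining lists had medians between -0.14 for linker and variant histones and 0.16 for stefins, alarmins and S100 genes. Among these, the transcription factor list had 2 of 27 genes called higher, Klf4 (1.03) and Irf8 (0.74), and 3 lower, Gata2, Bcl6 (-0.72) and Id1 (-0.68). Irf8 was not called with other Fcnb thresholds (0.44 at 10 and 0.53 at 3 UMIs), nor Klf4 at 3 UMIs (0.43).

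Several lists of markers of other cell types also differed between the libraries, in both directions. The monocyte and macrophage list had a median of 0.58, with 4 of 11 measured genes (Ccr2, Ctss, Irf8 and Klf4) called higher and none lower. With an Fcnb threshold of 3 UMIs 1 of 12 was called, with a median of 0.43. Dendritic cell markers had a median of 0.48 with 2 of 6 called higher, and mature neutrophil markers 0.13 with 2 of 12 called higher. Neither list had a gene called lower. Without Scrublet doublets the mature neutrophil median was 0.019, with 1 of 11 genes called in each direction. Without members that had 10 or more UMIs of another cell type's genes it was 0.00093, with 1 of 11 called higher and 2 lower. Ctss, cathepsin S, was at 19.97 CPM in HFD and 6.39 in ND. Summed over the 19 listed genes, none of them at 0, monocyte markers stood at 6043 CPM in HFD and 6121 in ND members, most of it Ly6c2 (5467 in HFD and 5618 in ND), which granulocyte progenitors also express. The erythroid list had a median of -2.28 with 8 of 9 called lower, and the basophil, mast cell and eosinophil list -0.40 with 4 of 10 (Cpa3, Fcer1a, Ms4a2 and Gata2) called lower and none higher. These medians depended on few cells. Without Scrublet doublets the erythroid median was 0.58 (3 genes, 1 called higher) and the basophil median -2.77 (7 of 10 called lower). Without the 2% of members richest in each gene they were 0.14 (2 genes, none called) and 0.0062 (6 genes, 1 called in each direction). Without members carrying other cell types' genes they were -0.26 (3 genes, none called) and 0.14 (7 genes, 1 called in each direction), and as a mean over cells the basophil median was 0.17. The 13 erythroid markers summed to 285 CPM in HFD and 473 in ND members, with Alas2 at 0 in HFD. The 13 T and NK cell markers had 7 genes at 0 in each library. Their part in the differences between libraries was not tested, beyond the values given without the cells that held most of a gene.

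**Figure D5:**
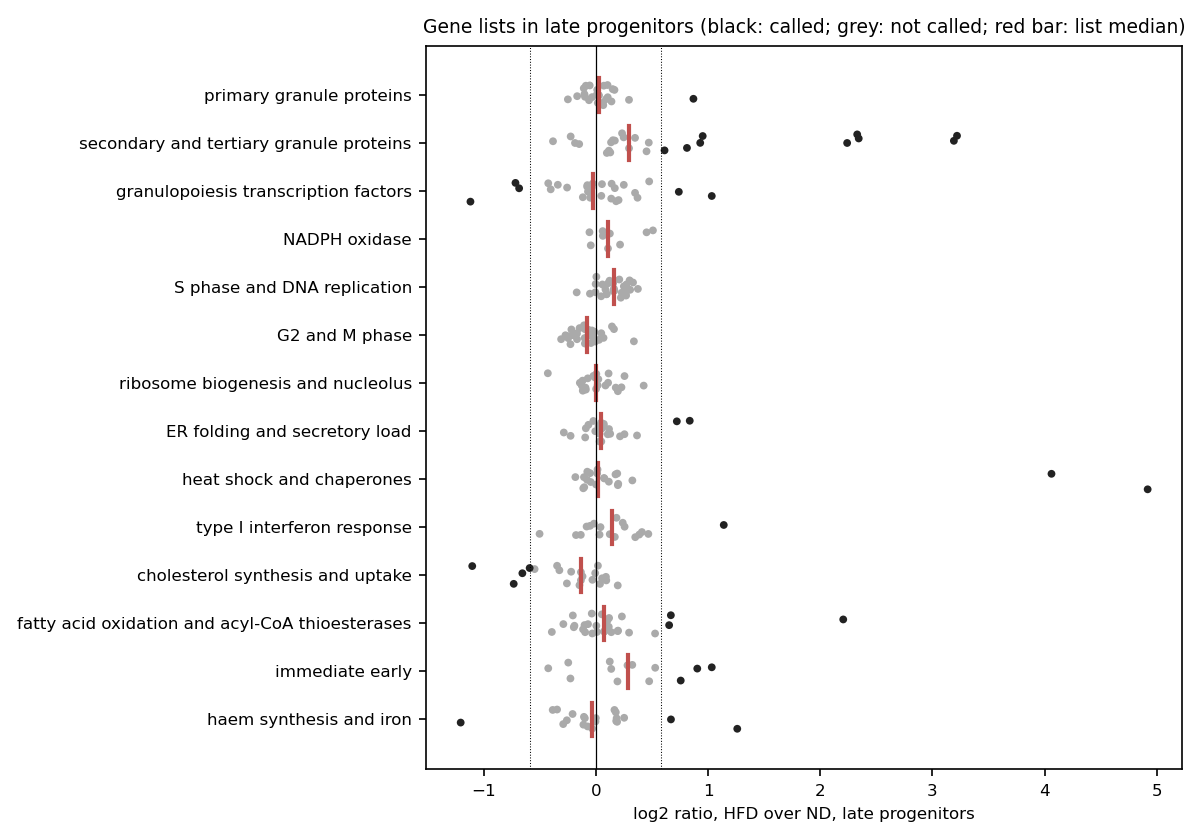
Log2 ratio of HFD over ND in late progenitors for the measured genes of 14 lists (points, black where called, grey where not) with the list median as a red bar; dotted lines mark 1.5-fold. Of these 14, the secondary granule and immediate early lists have the highest medians, 0.30 and 0.28, and the cholesterol list the lowest, -0.13.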

How the data were processed

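Single-cell RNA of 1 HFD and 1 ND library was measured. Per the file headers, the authors deposited counts of molecules (UMIs) after RSEC error correction, by gene in each cell, from version 1.9.1 of the BD WTA Rhapsody pipeline with a custom reference whose build is not given in the sources used here. The members, lists and rules were chosen with earlier results of these data known. The libraries held 117773643 HFD and 117999042 ND RNA UMIs. UMIs were summed over the cells of a stage and scaled to the stage total (CPM). Genes were matched by symbol (20478 shared). Log2 ratios carry exact conditional binomial 95% intervals, shares Clopper-Pearson ones, and a 0 stands at 3 counts. A diet call needed 50 UMIs over both libraries, 1.5-fold and an interval without 0. There was no test. Intervals assume independent UMIs, and the ratio code was tested on simulated data. Named genes were the markers and rule genes, from every list the 4 largest diet ratios and the 3 highest levels, the 12 highest and 12 lowest diet ratios and 15 at each end of each stage contrast, with 200 UMIs. Cebpe, Cebpa, Spi1, Itgam, Lcn2, Hoxa9, Meis1, Csf3r, Cxcr2, Ets1, Mki67, Ctsc, Id1, Lyz1, Mgst1, Ms4a3, Alas2, Plk1, Slpi, Cfp, Slc11a1, Fth1 and the letters searched upstream of genes were chosen after their values or sequences were seen. Antibody tags are counts too. Alternatives changed the cell filter, doublets (Scrublet in scanpy 1.11.5), Fcnb and secondary granule thresholds, depth, scaling, UMI minimum and fold. Python 3.11.15, numpy 2.4.6, scipy 1.17.1 and matplotlib 3.10.9 were used. Some genes the rule names are not reported here.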

Additional observations from a re-analysis of the deposited data

How the results depend on the processing

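The ratio of the share of members was within the interval first given (0.963 to 1.41) in all 7 alternatives that changed the cells. The 153 genes called higher and 128 lower became 34 and 18 with 200 or more UMIs and 41 and 24 at 2-fold, 201 were lower with 20 or more UMIs, and 54 were lower after thinning to 5000 UMIs. Over the list medians, 392 of the values stayed within a range of the first median and 13 did not. That range was taken from the ranked ratios of a list's genes. It reflects the spread between genes and not counting error, and is wide for short lists. Among those 13 were the secondary granule list (0.13 without Scrublet doublets), the transcription factors (-0.12 thinned) and the G2 and M phase list (-0.017 as a mean over cells). For 66 named genes called between diets, the fold and interval were applied again under each alternative, but not the minimum of 50 UMIs. On that looser rule 66 were still called under the stricter cell filter and both other scalings. With secondary granule genes under 1% 62 were, at the other Fcnb thresholds 55 or 56, and as a mean over cells 55. Without Scrublet doublets 49 were, without members carrying genes of other cell types 48, without the richest 2% of cells 42 and after thinning 19. Among these 66, direction reversed for 6 without doublets, 4 thinned, 3 without the richest cells, 2 at an Fcnb threshold of 10 UMIs, 2 without members carrying other types' genes and 1 as a mean over cells. Of the reversed genes, the text reports Car2 (0.58 without doublets, 0.48 thinned, 0.053 without the richest cells), Cpa3 (0.37 thinned, 0.25 as a mean over cells), Lypla2 (-0.037 thinned) and Pacsin2 (0.0084 thinned). The late over early ratio of Ltf in ND reversed to 1.54 without doublets and 0.33 thinned. The cause was not tested. Hspa1a and Oasl2 had too few UMIs for a value after thinning. No paired analysis was possible because each diet has 1 library, so no replicate could be left out. The number of members limits genes under 50 UMIs, and 1 library per diet leaves the spread between animals unknown.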
